A study of Mus musculus with 4 samples.

Results

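The 10 genes described here form the core of the RB and p53 tumor suppressor pathways. They are *Rb1* and its relatives *Rbl1* and *Rbl2*, the E2F factors *E2f1* and *E2f3*, the inhibitors of cyclin-dependent kinases *Cdkn1a*, *Cdkn1b* and *Cdkn2a*, and *Trp53* with its regulator *Mdm2*. They were chosen by name out of 21938 protein-coding genes of GENCODE release M21, and a gene window was the gene body with 20 kb on each side. ATAC-seq, in which a transposase cuts and tags the accessible stretches of the genome, was performed on 4 untreated cell lines of mouse small-cell lung cancer (SCLC), with 1 library per line. All 4 lines were derived by FACS from lung tumors of *RP* mice, which carry floxed alleles of both tumor suppressors (Trp53 L/L and Rb1 L/L), on a mixed C57Bl/6, Balb-c and S129 background, so every line carried the same engineered alleles, and no line of another genotype served as control. SMC (SCLC metastasizing cell) lines 1 and 2 were sorted as NCAM hi CD44 lo/- cells and grew in suspension. Non-SMC lines 1 and 2 were sorted as NCAM lo CD44 hi cells and grew attached, so that the cell type and the way of culture cannot be told apart. Each line is a population grown out in culture from sorted cells, and the study genotyped both kinds of cells as deleted for *Rb1* and *Trp53*. Lines of both types are described as paired in the labels, but whether lines of 1 number came from 1 mouse is not given in the sources used here, nor is the age of the mice at sorting.

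RB and its relatives p107 (*Rbl1*) and p130 (*Rbl2*) bind E2F factors and hold back the genes of DNA replication until cyclin-dependent kinases phosphorylate them. p27 (*Cdkn1b*), p21 (*Cdkn1a*) and p16 (made from *Cdkn2a*) inhibit these kinases. p53 (*Trp53*) turns on genes of growth arrest and death, *Cdkn1a* and *Mdm2* among them, MDM2 in turn marks p53 for degradation, and ARF, the other protein of *Cdkn2a*, inhibits MDM2. Deletion of *Rb1* and *Trp53* in the lung produces the tumors of the *RP* mouse.

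The lists held between 91118 and 154039 peaks per line, of which 61 to 85 per line lay outside chromosomes 1 to 19, X and Y and were left out. Depth differed between the lines. The genome-wide background, recovered from the fold enrichment and p-value of each peak, ranged from 0.456 reads of pileup in SMC line 1 to 1.54 in SMC line 2. At this background the lowest peak with a p-value up to 0.01 stood 6.58 and 3.25 times above background in the SMC lines and 3.37 and 4.70 times in the non-SMC lines (values of such pairs follow the line numbers), so a peak missing from a line means that none was detectable at its depth. Promoter peaks, those in the 6 kb around the 5′ end of the gene, separated the types for only some of the markers. Of 6 SMC markers 5 and 6 had one in the SMC lines and 4 and 3 in the non-SMC lines, and of 5 non-SMC markers 1 and 5 had one in the SMC lines and 5 and 5 in the non-SMC lines. The SMC marker *Chga* had one in each SMC line and in no non-SMC line. The non-SMC markers *Cd44*, *Wwtr1* and *Yap1* had one in both non-SMC lines and in SMC line 2, where the -log10 q of the highest was 1.04 to 1.94, and *Vim* had one in all 4 lines. Of 6 markers of other lung and blood cells, SMC line 1 had a peak at 2, SMC line 2 also at 2, with 1 of them in common, and the non-SMC lines at 4 and 3, with no peak in any line at *Scgb1a1*. The part of such cells in the results was not tested.

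The 4 lists placed 75 and 95 peaks in the 10 windows in the SMC lines and 81 and 87 in the non-SMC lines. The means were 85.00 ± 14.1 (SD, n = 2) and 84.00 ± 4.24 (SD, n = 2), so the difference of 1.00 was smaller than the spread between lines of a type. A two-sided exact permutation test of 2 lines against 2 cannot reach a p under 0.333, so SMC and non-SMC values are given without tests. *Rbl1* ranged most, with 6 peaks in SMC line 1, 19 in SMC line 2 and 8 in each non-SMC line. *Rbl2* had more peaks in both SMC lines, 10 and 14, than in the non-SMC lines, 3 and 9. *Cdkn2a* had 5 in each SMC line against 8 and 7, and *E2f3* had 5 and 13 against 14 and 14. More peaks in both non-SMC lines than in either SMC line were found for 2 of 10 members, beside 13.6% of all protein-coding genes, and the reverse for 1 of 10, beside 13.1%. *Cdkn1a* had 8 and 6 peaks in the SMC lines and 8 and 6 in the non-SMC lines.

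Peaks far above the threshold were distributed differently. At a -log10 q of at least 5, where q is the p-value corrected by the peak caller for all positions of its library, 10 and 13 peaks lay in the windows in the SMC lines and 33 and 28 in the non-SMC lines. The means were 11.50 ± 2.12 and 30.50 ± 3.54 (SD, n = 2 each), and the types did not overlap. Genome-wide the SMC lists held 13062 and 26312 such peaks and the non-SMC lists 43984 and 25103. As a share of those, the windows held 0.766 and 0.494 per mille in the SMC lines and 0.750 and 1.12 per mille in the non-SMC lines, and these shares overlapped between the types. The height needed to pass also differed by line. Where the local background equalled that of the genome, the lowest such peak stood 17.5 and 7.80 times above it in the SMC lines. In the non-SMC lines it stood 8.08 and 14.1 times above it. When all libraries were thinned to the depth of SMC line 1 and peaks with p up to 1e-05 were kept, the windows held 23 and 8 peaks in the SMC lines and 26 and 32 in the non-SMC lines. The whole thinned lists held 30376 and 18820 peaks in the SMC lines and 32927 and 35476 in the non-SMC lines. The lowest count in the windows thus came from the shortest list. Thinning was applied to the called peaks, so it could remove peaks but add none. At a -log10 q of at least 5 in the full lists *Mdm2* differed most, with no peak in the SMC lines and 5 in each non-SMC line. Windows with none in the SMC lines and at least 5 in each non-SMC line made up 0.178% of protein-coding genes, a pattern looked up after the values of *Mdm2* were seen. *Rbl1* had 0 and 1 against 4 and 4, *Cdkn2a* 2 and 1 against 4 and 4, *Cdkn1a* 0 and 1 against 2 and 3, and *E2f3* 1 and 1 against 3 and 2. These 5 members had more in both non-SMC lines than in either SMC line, beside 24.0% of protein-coding genes, and no member had the reverse, beside 3.26%. At *Rb1*, *Trp53*, *Rbl2*, *Cdkn1b* and *E2f1* the values of the types overlapped or touched.

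**Figure D1:**
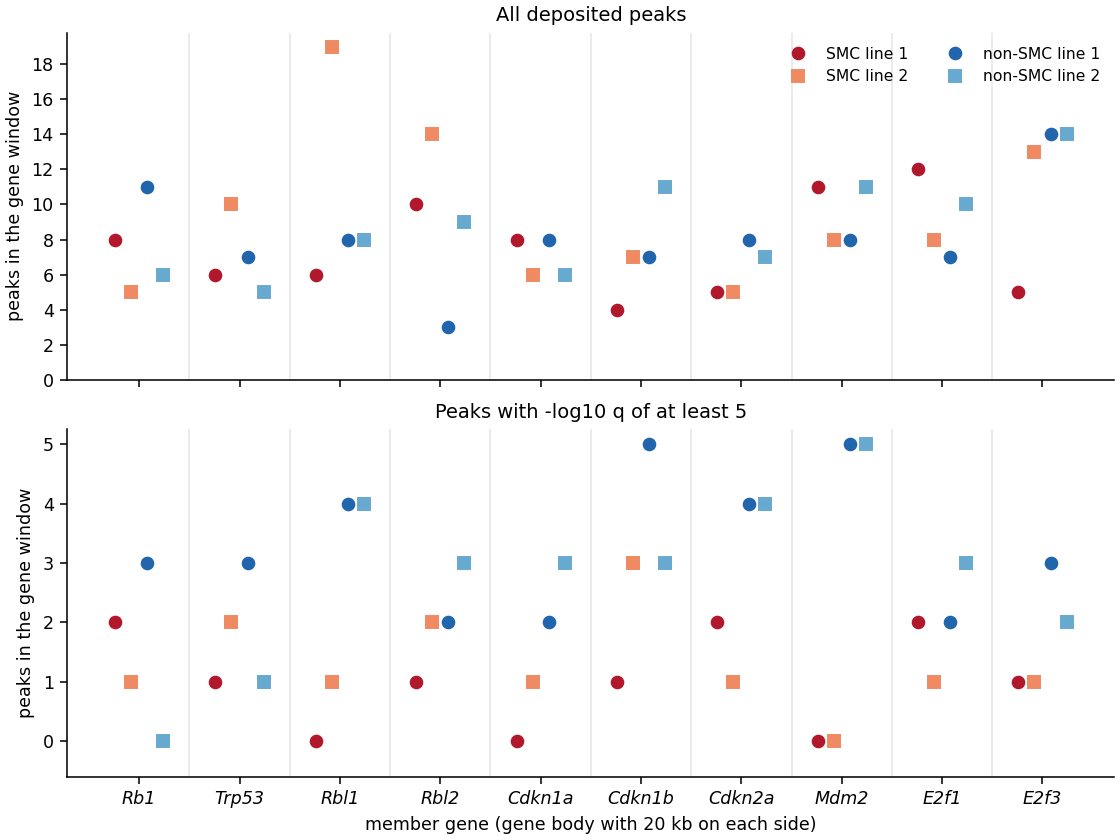
Number of peaks in the window of each member gene (gene body with 20 kb on each side) in each of the 4 lines, for all deposited peaks (top) and for those with a -log10 q of at least 5 (bottom). Over all peaks the SMC (red) and non-SMC (blue) points mix for most genes, while at the higher threshold *Mdm2* has 0 peaks in both SMC lines and 5 in both non-SMC lines.

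*Rb1* lies on chromosome 14 from 73183673 to 73325822 on the minus strand (GRCm38, the assembly of mm10), and its transcript Rb1-201 has 27 exons. Its gene body held 6 and 2 peaks in the SMC lines and 9 and 4 in the non-SMC lines. Of the 27 exons of Rb1-201 only exon 1 overlapped a peak, in non-SMC line 1 with a fold enrichment of 2.29, and of the 26 introns 5 did, namely introns 1, 2, 4, 9 and 17. The fold enrichment is the pileup at the summit over the local background of the same library, with 1 added to both. Values of different lines therefore also depend on depth, and for some peaks the percentile within the line's own list is given. Intron 17 held 3 and 1 of these peaks in the SMC lines and 4 and 4 in the non-SMC lines. *Lpar6*, a receptor gene, lies within it, and the region at chr14:73238451-73239084, which overlaps exons of *Lpar6* and of an *Rb1* transcript other than Rb1-201, had a peak in every line with fold enrichments of 6.18 and 3.55 in the SMC lines and 5.12 and 4.27 in the non-SMC lines. Elsewhere in intron 17, 2 regions at chr14:73234526-73235006 and chr14:73253498-73254160 had a peak in each non-SMC line but in no SMC line, and none of these 4 peaks passed a -log10 q of 5, the values ranging from 1.74 to 4.76.

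Intron 2 of *Rb1* held the highest peak of the gene in each SMC line. In non-SMC line 1 the highest lay in intron 17 at chr14:73237812-73238315, over an exon of *Lpar6*, with a fold enrichment of 8.68, where SMC line 1 had 4.12. The region at chr14:73313067-73313692, 12.3 kb downstream of the 5′ end, had a fold enrichment of 8.17 in SMC line 1 and 11.4 in SMC line 2, at percentiles 94.7 and 98.5 of their lists. In non-SMC line 1 a peak with a fold enrichment of 3.62 lay at percentile 49.0, and non-SMC line 2 had none. At a -log10 q of at least 5 this was the only region of the 10 windows with a peak in each SMC line but in no non-SMC line, and it kept that pattern in the thinned lists. The sequence of 121 bases around its summit, on the plus strand as in the following sequences of regions, is shown because it carries this difference. It holds no AP-1 site, here TGACTCA or TGAGTCA.
Rb1 intron 2 (chr14:73313464-73313584): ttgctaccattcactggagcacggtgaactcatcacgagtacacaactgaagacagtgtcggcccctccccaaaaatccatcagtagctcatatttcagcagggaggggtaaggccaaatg

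*Trp53* lies on chromosome 11 from 69580359 to 69591873 on the plus strand, and Trp53-201 has 11 exons. Its body held 1 and 3 peaks in the SMC lines and 2 and 1 in the non-SMC lines. The peaks touched exons 1 and 11 and introns 1 and 10. Every line had a peak over the 5′ end in the region at chr11:69580172-69580822, with fold enrichments of 3.11 and 2.95 in the SMC lines and 4.27 and 4.89 in the non-SMC lines. Higher peaks lay 1.06 kb upstream at chr11:69578904-69579533, within *Wrap53*, the gene that starts beside *Trp53* on the opposite strand, and here all 4 lines passed a -log10 q of 5, with fold enrichments of 6.50, 5.19, 9.75 and 8.69, the SMC lines given first. A region in intron 1, at chr11:69581147-69581623, had a fold enrichment of 4.56 in non-SMC line 1 and of 5.64 in SMC line 2, with no peak in the other lines.

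The genotyping primers of the study for both floxed genes were matched to GRCm38 to place these peaks beside the engineered stretch. They are shown because they frame it.
Rb1 18 (chr14:73212740-73212756, plus strand): ggcgtgtgccatcaatg
Rb1 212 (chr14:73213317-73213340, minus strand): gaaaggaaagtcagggacattggg
Trp53-1 (chr11:69583065-69583085, plus strand): cgcaatcctttattctgttcg
Trp53-2 (chr11:69583176-69583195, minus strand): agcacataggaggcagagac
Trp53-3 (chr11:69591047-69591067, minus strand): tgagacagggtcttgctattg
The primers of *Rb1* span 601 bases that hold exon 19 alone, in introns 18 and 19. The outer primers of *Trp53* span 8003 bases from intron 1 to intron 10, with exons 2 to 10 between them. Rb1 18 also matched 2 other places of the genome and Trp53-2 matched 7. No line had a peak between the primers of either gene. The nearest peaks around the *Rb1* primers left 49496 bases free in all 4 lists, and those around the *Trp53* primers left 9657. Where the loxP sites lie was not read from these data. Of stretches of gene bodies as long as the interval of *Rb1*, 85.4% had no peak in any line, and 32.9% of those as long as the interval of *Trp53* had none. The study genotyped both kinds of cells as deleted for both genes, and a deleted stretch cannot have a peak. The missing peaks therefore say nothing on how accessible these stretches are, and the deletion was not tested here.

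**Figure D2:**
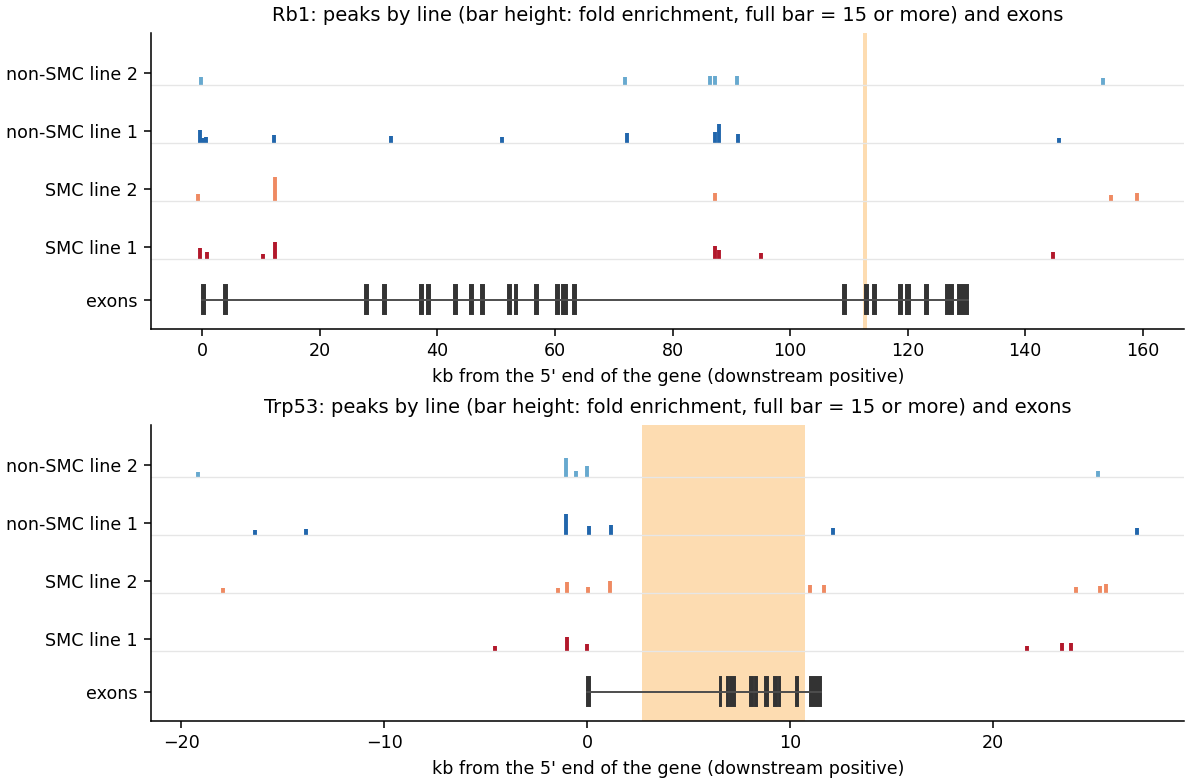
Peaks of the 4 lines along *Rb1* (top) and *Trp53* (bottom), by the distance of the summit from the 5′ end of the gene in kb, with bar heights giving the fold enrichment (a full bar is 15 or more), exons as black boxes (drawn with a minimum width) and the stretch between the genotyping primers shaded. No bar stands in the shaded stretch, and the tallest *Rb1* bar of each SMC line stands in intron 2, about 12.3 kb from the 5′ end.

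All 10 members had a peak in all 4 lines within the 6 kb around the 5′ end, beside 48.7% of protein-coding genes. At a -log10 q of at least 5 in every line, 5 of 10 remained (*Trp53*, *Cdkn1b*, *Cdkn2a*, *E2f1* and *E2f3*), beside 21.4%. For *Trp53* all 4 lines passed at the region 1.06 kb upstream, within *Wrap53*. At its 5′ end the -log10 q was 0.872 and 1.44 in the SMC lines and 8.02 and 4.74 in the non-SMC lines. *E2f3*, an activating E2F, had the highest promoter peaks of the members in every line, with fold enrichments of 12.6 and 11.9 in the SMC lines and 13.2 and 15.7 in the non-SMC lines, at percentiles of 96.2 to 99.7. *E2f1*, the E2F best known for driving S phase, had 6.81, 6.37, 8.11 and 10.2 in the same order. The local background of the *E2f1* promoter peaks was 3.23 to 5.85 times the genome background in the 4 lines. *Cdkn1b* reached 6.56, 6.96, 6.75 and 7.20, and *Cdkn2a* 6.76, 8.81, 6.79 and 9.01. *Rbl1* had 4.76, 4.27, 6.28 and 5.79, and *Rbl2* had 5.64, 5.77, 9.07 and 6.97. The 5.79 of *Rbl1* came from a peak 2.82 kb into the gene, and within 500 bases of its start non-SMC line 2 reached 4.33. *Mdm2* had 5.30 and 3.08 in the SMC lines and 6.97 and 6.85 in the non-SMC lines, at percentiles of 48.1 to 87.7. The 3.08 of SMC line 2 and the 6.85 of non-SMC line 2 came from intron 1. Within 500 bases of the start these lines had 2.55 and 6.42. *Cdkn1a* had the lowest percentiles of the members in SMC line 1 and both non-SMC lines, from 35.1 to 55.3, but stood at 79.2 in SMC line 2. These ranks depend on the 6 kb being centred on the annotated 5′ end of *Cdkn1a*. Peaks just outside the 6 kb, in intron 1, stood at 81.9 in SMC line 1 and at 80.7 and 85.0 in the non-SMC lines. *Rb1* itself had 5.19 and 3.15 in the SMC lines and 6.16 and 3.66 in the non-SMC lines, at percentiles of 54.6 to 81.9. Their summits lay 243 to 678 bases upstream of the annotated 5′ end, and in SMC line 2 no peak came within 500 bases of it.

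**Figure D3:**
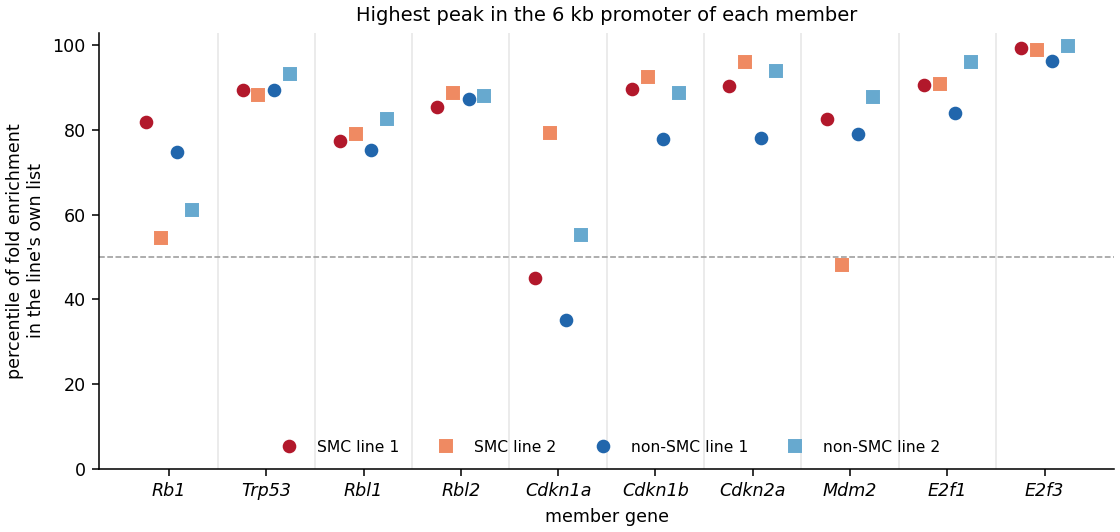
Percentile of the fold enrichment, within the line's own list, of the highest peak in the 6 kb promoter of each member (points, 1 per line). *E2f3* lies at 96.2 or higher in every line, *Cdkn1a* between 35.1 and 79.2, and SMC and non-SMC points mix at most members. The 6 kb of *Cdkn1a* are centred on its annotated 5′ end and leave out higher peaks in its intron 1.

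Several members have more than 1 start, and the starts were not open alike. *Cdkn2a* makes ARF from its outer start and p16 from a start 12.5 kb further in. The outer start had a peak in all 4 lines. At the inner start only non-SMC line 1 had one, with a fold enrichment of 3.62 and a -log10 q of 2.32. *Cdkn1a* has its annotated 5′ end at 29090976 on chromosome 17, where no line had a peak within 500 bases of the start. Its next start, 2.79 kb downstream, had a peak in every line within the region at chr17:29093483-29095718, whose highest peaks, in part further into intron 1, had fold enrichments of 5.20, 4.28, 7.31 and 6.19, the SMC lines first. The start furthest in, 6.92 kb from the 5′ end, had no peak within 500 bases in any line. At *E2f3* the outer start was open in all 4 lines, and the start 1.67 kb further in had a peak in SMC line 2 alone (2.32). RefSeq promoters of build GRCm38.p6 were found for 9 of the 10 members, *Rb1* being the exception, with 12 promoters in all. The first 250 bases, up to the start, are shown for the first 2 starts of *Cdkn1a*, without and with a peak, with matches to the p53 decamer in capitals, on the strand of the gene.
Cdkn1a outer start (chr17:29090729-29090978, plus strand): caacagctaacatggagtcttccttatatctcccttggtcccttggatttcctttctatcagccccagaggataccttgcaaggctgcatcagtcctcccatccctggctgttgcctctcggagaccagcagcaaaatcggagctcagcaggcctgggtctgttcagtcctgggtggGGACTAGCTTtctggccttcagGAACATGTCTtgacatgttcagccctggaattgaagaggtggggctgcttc
Cdkn1a inner start (chr17:29093519-29093768, plus strand): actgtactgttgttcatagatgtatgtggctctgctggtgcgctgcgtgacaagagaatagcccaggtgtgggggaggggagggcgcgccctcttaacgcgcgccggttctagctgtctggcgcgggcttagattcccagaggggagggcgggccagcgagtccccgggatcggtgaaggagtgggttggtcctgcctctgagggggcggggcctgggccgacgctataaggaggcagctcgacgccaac

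The outer promoter of *Cdkn1a* holds 2 matches to the decamer and the inner one none. These 2 matches lie within 13 bases of each other, the limit used below for paired decamers in peak regions. Pairs were not counted over promoters. Of all 32851 RefSeq promoters, 8.36% hold at least 1 decamer in their 300 bases, and 3 of the 12 member promoters do. The *E2f1* promoter among the 12, chr2:154569377-154569676 on the minus strand, lies inside the gene, whose GENCODE 5′ end is at 154569892. The bases upstream of that end were not scanned for any motif. The E2F site, spelled TTTCCCGC, TTTCGCGC, TTTGCCGC or TTTGGCGC on either strand, was found in 2.26% of all promoters and in 3 of the 12, those of *Rbl1*, *E2f3* (outer start) and *Cdkn2a* (outer start). They are shown with the site in capitals, since each of these starts had a peak in the lines described above.
Rbl1 (chr2:157204535-157204784, minus strand): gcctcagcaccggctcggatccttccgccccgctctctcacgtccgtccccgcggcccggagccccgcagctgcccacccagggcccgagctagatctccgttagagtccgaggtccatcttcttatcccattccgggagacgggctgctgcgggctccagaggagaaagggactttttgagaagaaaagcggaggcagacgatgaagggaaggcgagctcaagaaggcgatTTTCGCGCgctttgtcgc
Cdkn2a outer start (chr4:89294620-89294869, minus strand): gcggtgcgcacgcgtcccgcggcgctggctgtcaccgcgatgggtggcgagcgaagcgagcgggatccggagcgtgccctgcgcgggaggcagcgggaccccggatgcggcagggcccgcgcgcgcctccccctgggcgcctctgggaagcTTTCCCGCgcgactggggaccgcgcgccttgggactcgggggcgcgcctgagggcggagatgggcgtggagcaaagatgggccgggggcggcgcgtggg
E2f3 outer start (chr13:29986064-29986313, minus strand): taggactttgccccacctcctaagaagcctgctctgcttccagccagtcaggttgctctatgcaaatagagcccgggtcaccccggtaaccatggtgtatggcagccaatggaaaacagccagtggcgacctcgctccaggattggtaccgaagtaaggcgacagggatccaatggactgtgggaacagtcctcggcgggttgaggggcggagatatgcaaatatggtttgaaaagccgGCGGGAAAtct
The CHR element (TTTGAA or TTCGAA on either strand) was present in 19.2% of promoters and in 2 of the 12. A match describes the letters and does not show that a factor was bound.

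Merged over the 4 lists, 224 of the 357570 peak regions of the genome lay in the member windows. Of these, 170 had a peak in 1 line only, 19 in all 4, 11 in both non-SMC lines and no SMC line, and 3 in both SMC lines and no non-SMC line. The remaining 21 crossed the types in 2 or 3 lines. These make 8.48%, 4.91% and 1.34% for all 4 lines, non-SMC-only and SMC-only, beside 4.89%, 7.17% and 4.28% of the regions in windows of all protein-coding genes. For the regions of 1 line only and the 21 across the types no share over all genes is given here. The regions of 1 line only had a median -log10 q of 0.955, and 4 of them reached 5. Among the 39 regions with a peak at a -log10 q of at least 5 in any line, 12 passed it in both non-SMC lines and no SMC line, which is 30.8% beside 19.7% over all genes, and 1 in both SMC lines only, which is 2.56% beside 5.58%. The 12 non-SMC regions lay at 6 members (*Mdm2*, *Cdkn2a*, *Rbl1*, *Cdkn1a*, *Cdkn1b* and *E2f3*), beside 35.8% of protein-coding genes with such a region. The SMC region lay at 1 member, *Rb1*, beside 12.0%. Of the 12, 8 kept the pattern in the thinned lists, a count given without a share over all genes. In the full lists 7 of the 12 had no SMC peak of any strength. Thinning adds no peak, so at these 7 only the non-SMC peaks could change.

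At *Cdkn2a* the strongest non-SMC region, chr4:89302031-89302597, lay 7.67 kb upstream of the outer start, between *Cdkn2a* and *Cdkn2b* and outside every annotated gene. Its fold enrichment was 16.1 and 12.1 in the non-SMC lines, with -log10 q of 53.7 and 19.4, and neither SMC line had a peak. In these lines its summit stood 40.4 and 32.9 times above the genome background. A region at chr4:89257709-89258300, 36.6 kb from the outer start and past the 3′ end, in an intron of the lincRNA Gm12606, had 13.6 and 8.77 in the non-SMC lines and again none in the SMC lines. *Cdkn2b*, which codes for the kinase inhibitor p15, had a promoter peak in all 4 lines at chr4:89310269-89311254, with a fold enrichment of 8.11 in SMC line 1, 3.15 in SMC line 2, and 12.7 and 11 in the non-SMC lines. The surroundings differed as well. In the 1 Mb centred on *Cdkn2a* there were 23 and 40 peaks in the SMC lines and 107 and 85 in the non-SMC lines. In such windows of 1 Mb, both non-SMC lines had more peaks than either SMC line at 2 of 10 members (*Cdkn2a* and *Rb1*), beside 14.2% of protein-coding genes. They had at least 2 times as many at *Cdkn2a* alone, beside 4.59%. The reverse was seen at 1 member, *E2f1*, with 95 and 152 peaks in the SMC lines and 69 and 94 in the non-SMC lines, beside 12.2%.

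At *Cdkn1b* the region chr6:134903825-134904434, 16.3 kb upstream and outside every annotated gene, had fold enrichments of 6.73 and 9.26 in the non-SMC lines and no SMC peak. Nearer to the gene, 14.4 kb upstream, non-SMC line 1 alone had a peak, with 10.1. Past the 3′ end, regions 8.28 and 8.80 kb from the 5′ end, the latter over an exon of the lincRNA Lockd, were open in all 4 lines, the former with 4.68 and 6.00 in the SMC lines and 8.89 and 6.60 in the non-SMC lines. At *Cdkn1a* the non-SMC region chr17:29078894-29079174 lay 11.9 kb upstream, over an exon of Trp53cor1, a lincRNA induced by p53. Its fold enrichment was 7.70 and 6.85 in the non-SMC lines, with -log10 q of 13.5 and 7.96, and it was absent from both SMC lists. Both non-SMC lines kept a peak there in the thinned lists, where no SMC peak could appear.

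*Mdm2* held 5 of the 12 regions. The highest, chr10:117721404-117721963, 10.9 kb upstream, had fold enrichments of 16.0 and 9.39 in the non-SMC lines and 2.54 in SMC line 1, at a -log10 q of 0.430 there. The region at chr10:117717540-117718066, 7.03 kb upstream, had 6.92 and 7.11 in the non-SMC lines and none in the SMC lines. In the gene itself the region at chr10:117709972-117710236, 625 bases into the gene in intron 1, had 5.75 and 6.85 in the non-SMC lines, none in SMC line 1 and 3.08 in SMC line 2. *Mdm2* is known to have an inner promoter in intron 1 that p53 uses. The outer promoter at chr10:117710518-117711287 had a peak in every line, with 5.30 and 2.55 in the SMC lines and 6.97 and 6.42 in the non-SMC lines, and only the latter passed a -log10 q of 5. The last of the 5 lay 33.1 kb from the 5′ end, in an intron of *Cpm*, with 5.82 and 6.10 in the non-SMC lines, 2.50 in SMC line 2 and no peak in SMC line 1.

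*Rbl1* had its non-SMC regions in introns 14 and 21. The intron 14 region, chr2:157170224-157170812, had 12.2 and 9.53 in the non-SMC lines, 3.37 in SMC line 2 and none in SMC line 1. The intron 21 region, chr2:157147829-157148110, had 6.39 and 7.19 in the non-SMC lines and none in the SMC lines. *Rbl2* had no region of 1 type alone, and the strongest region of its window, chr8:91133694-91134459, lay at the start of *Aktip*, at percentiles of 98.3 to 99.8 of the 4 lists. *E2f3* had a non-SMC region 82.5 kb from its start and past its 3′ end, chr13:29903264-29903813, with 13.2 and 10.9 in the non-SMC lines and no SMC peak. At *E2f1* the region chr2:154577409-154577665, 7.62 kb upstream, had a peak in both SMC lines only, with 10.4 in SMC line 1 (-log10 q of 18.6) and 3.51 in SMC line 2 (-log10 q of 2.66). The other 2 SMC-only regions, at chr2:154558075-154558544 near *E2f1* and chr2:157159450-157159699 over exon 19 of *Rbl1*, had a -log10 q of at most 1.60. At *E2f1* a pair of non-SMC-only regions downstream of the gene, over *Necab3*, passed a -log10 q of 5 only in the line numbered 2.

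**Figure D4:**
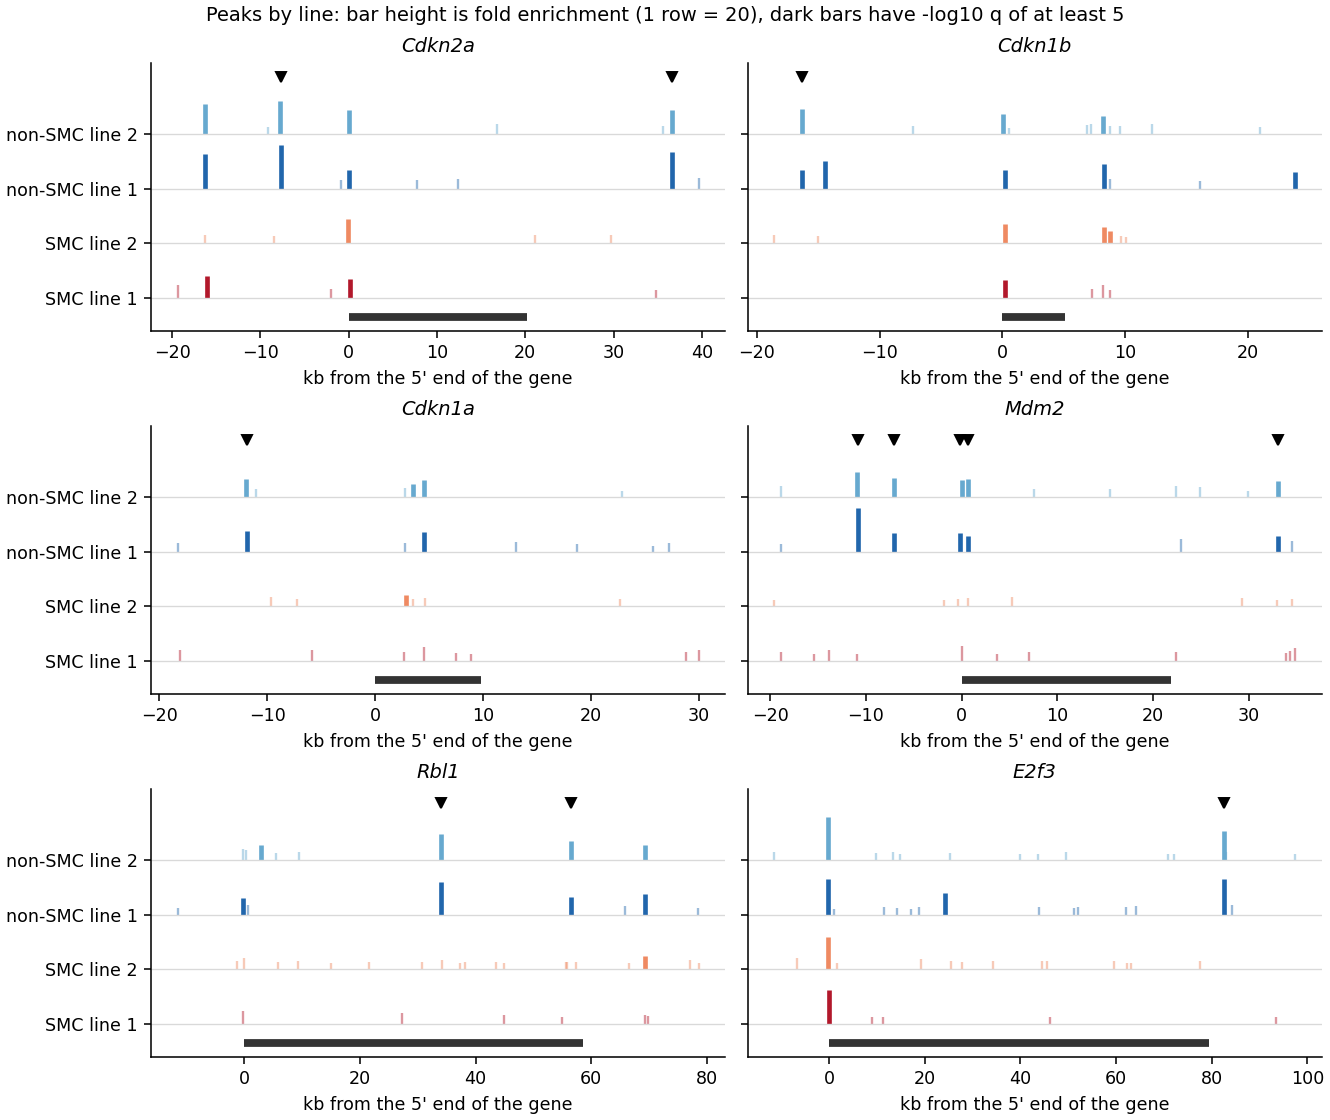
Peaks of the 4 lines around the 6 members with a region that passed a -log10 q of 5 in both non-SMC lines and in no SMC line (triangles), by distance of the summit from the 5′ end in kb. Bars give the fold enrichment (1 row spans 20), dark bars have a -log10 q of at least 5, and the gene body is the black line below. The *Mdm2* panel has 5 triangles, the *Cdkn2a* and *Rbl1* panels 2 each, and the other panels 1 each.

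The 121 bases around the summit are shown for 6 of the 12 non-SMC regions, those at *Cdkn2a*, *Cdkn1b*, *E2f3* and upstream of *Mdm2* whose stretch meets no annotated exon, with AP-1 sites in capitals.
Cdkn2a, 7.67 kb upstream (chr4:89302267-89302387): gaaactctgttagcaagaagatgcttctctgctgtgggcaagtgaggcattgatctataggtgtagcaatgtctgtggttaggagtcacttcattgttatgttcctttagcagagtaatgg
Cdkn2a, 36.6 kb downstream (chr4:89257972-89258092): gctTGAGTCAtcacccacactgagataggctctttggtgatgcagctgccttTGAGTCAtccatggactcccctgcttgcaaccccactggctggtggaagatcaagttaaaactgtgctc
Cdkn1b, 16.3 kb upstream (chr6:134904041-134904161): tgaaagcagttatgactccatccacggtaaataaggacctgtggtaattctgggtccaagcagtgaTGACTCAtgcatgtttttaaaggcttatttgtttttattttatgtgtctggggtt
E2f3, 82.5 kb downstream (chr13:29903487-29903607): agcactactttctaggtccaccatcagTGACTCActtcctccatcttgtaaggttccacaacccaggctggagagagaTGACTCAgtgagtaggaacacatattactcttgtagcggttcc
Mdm2, 7.03 kb upstream (chr10:117717730-117717850): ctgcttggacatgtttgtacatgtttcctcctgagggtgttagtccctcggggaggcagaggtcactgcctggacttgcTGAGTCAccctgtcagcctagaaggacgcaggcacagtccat
Mdm2, 10.9 kb upstream (chr10:117721574-117721694): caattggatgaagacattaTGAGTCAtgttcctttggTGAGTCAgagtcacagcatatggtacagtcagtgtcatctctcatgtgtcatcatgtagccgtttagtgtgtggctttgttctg
An AP-1 site, the sequence bound by JUN and FOS factors, was present in this stretch in 7 of the 12 regions. Over the 9547 such non-SMC regions in windows of all protein-coding genes the share was 44.3%, so the members were close to the rest. The share was 3.26% over the 2700 SMC regions at the same threshold and 6.45% over the regions with a peak in all 4 lines, where 0 of 19 member regions had one. Of the sequences shown, the region 7.67 kb upstream of *Cdkn2a* holds no AP-1 site, and those of *E2f3*, *Cdkn2a* downstream and *Mdm2* 10.9 kb upstream hold 2 each. The *Rbl1* regions in introns 14 and 21 also meet no annotated exon and are not shown. The share with a site among the sequences shown is therefore not that of the 12. Paired p53 decamers with at most 13 bases between them were found in 0 of the 224 member regions within 60 bases of the summit, beside 0.0267% of all regions in gene windows. The pair in the outer promoter of *Cdkn1a* lies outside these regions, since no line had a peak there.

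The other genes of both pathways were taken from 4 lists of 71 genes. In all, 58 of 71 (81.7%) had a promoter peak in all 4 lines, beside the 48.7% of protein-coding genes. All 18 E2F targets, which are genes of DNA replication and mitosis, had one in every line. Of the RB partners and kinases 21 of 26 did, of the p53 regulators and relatives 7 of 10, and of the p53 targets 12 of 17. No gene of the 4 lists had a promoter peak in both lines of 1 type and in neither of the other, and none had it in 1 line only. For these patterns over all peaks no share of all protein-coding genes is given here, so the counts are not read as a trait of the lists. *Trp63*, a p53 relative of basal epithelia, was the single gene without a promoter peak in any line. At a -log10 q of at least 5, 32 of 71 had a peak in all 4 lines, beside 21.4% of protein-coding genes. In both non-SMC lines only there were 4 of 71, a share near the 5.30% of protein-coding genes, and in both SMC lines only 0, beside 1.63%. Those 4, named after their values were seen, were *Cdk6* (a kinase that phosphorylates RB), *E2f4* (a repressive E2F), *Usp7* (a deubiquitinase of p53 and MDM2) and *Fas* (a death receptor). *Fas* had fold enrichments of 8.69 and 10.1 in the non-SMC lines, 2.76 in SMC line 2 and no peak in SMC line 1, and *Cdk6* had 6.26 and 6.62, 3.15 and none in the same order. *E2f2*, also named after its values were seen, had 7 promoter peaks in SMC line 2 over a local background of up to 93.9 times that of the genome, with a fold enrichment of at most 1.83, 2 peaks in non-SMC line 1 and none in the other lines.

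**Figure D5:**
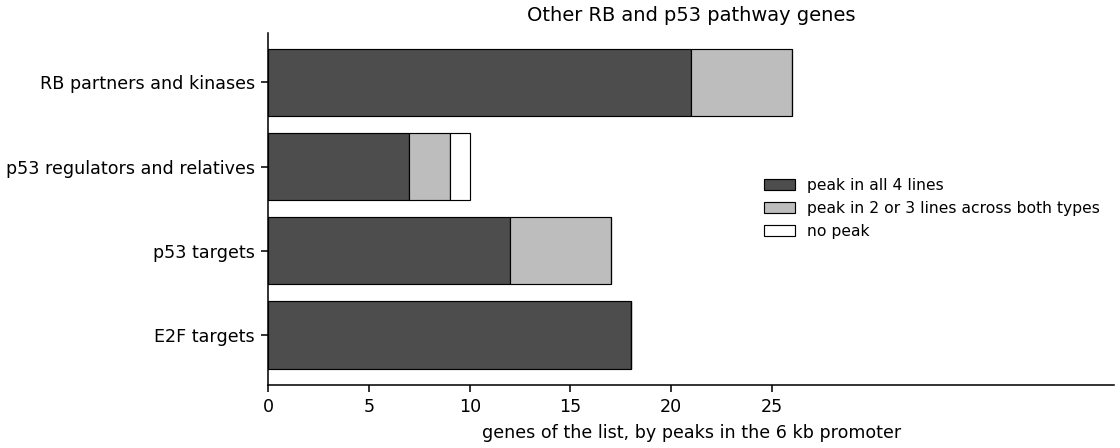
Number of genes of each of 4 lists of other RB and p53 pathway genes by the peaks in their 6 kb promoters. Dark bars are genes with a peak in all 4 lines, light bars those with a peak in 2 or 3 lines across both types, and the white bar is *Trp63*, which had none; all 18 E2F targets are dark.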

How the data were processed

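Peaks had been called by the authors with MACS2 2.1.1 from paired-end reads that were aligned by Bowtie2 2.3.4 (mm10) and cleared of duplicates, and 1 list was deposited for each line. Settings of the peak calling are not given in the sources used here. Fold enrichment, as deposited, was read as the ratio between pileup and local background at the summit, with 1 added to both. It is therefore lower in a shallow library for the same plain ratio. The authors also deposited the -log10 p and -log10 q of each summit. No peak was pooled or rescaled. The 10 members, the lists and the motifs were chosen with earlier results of these data known. Peaks were placed on GRCm38 with GENCODE M21, regions were peaks of the 4 lists merged at an overlap of 1 base, and a promoter was 6 kb centred on the 5′ end of the gene. Genes named outside the 10 members were those of the other lists with a promoter peak in both lines of 1 type only, in 1 line only or in none, and neighbours of regions described; others are marked in the text. The pileup and background were recovered from each pair of fold enrichment and p, tested on 38924 simulated peaks of which 100% were recovered within 1%, and failed for 3 to 5 peaks per line. Alternatives tried were the stricter -log10 q of 5, the 91057 top peaks per list, thinning by 1 binomial draw, each library left out, flanks of 5 kb, 50 kb or none, a reciprocal overlap of 50%, and promoters of 2 kb, 1 kb or at every transcript. E2F, CHR and p53 motifs were set with the design, while AP-1 and the paired decamers were added later. Motifs were sought on both strands. Values of 1 list depend on its depth and background. Reads were not analysed here. Overlaps were checked with bedtools 2.31.1, and work was done with matplotlib 3.10.9, pandas 2.3.3, scipy 1.17.1 and numpy 2.4.6 in Python 3.11.15.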

Additional observations from a re-analysis of the deposited data

Results flagged for a closer look

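The difference between SMC and non-SMC lines in the number of peaks per window changed sign between the lines numbered 1 and those numbered 2, for all members together (-6 and 8 peaks), *Trp53* (-1 and 5), *Rbl1* (-2 and 11), *Mdm2* (3 and -3) and *E2f1* (5 and -2). The difference between the pairs was not tested, each value rests on 1 library per type, and the labels call the lines paired without saying that lines of 1 number share a mouse.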

How the results depend on the processing

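Of 84 recomputed values, 56 stayed within the spread between lines or within 1.5 times the value reported, and 28 moved. With a -log10 q of 5 or more, the difference in window peaks became -19.0, SMC-only regions 1, regions of all 4 lines 6, promoters open in all 4 lines 5 of the members and 32 of the other genes, and peaks in the bodies of *Rb1* and *Trp53*, summed over lines, 5 and 3. With thinning the same values were -13.5, 1, 6, 5, 31, 6 and 3. Fewer peaks enter both settings by construction. A flank of 50 kb gave a difference of 16.0 and 10 SMC-only regions, a flank of 5 kb gave 5 non-SMC-only regions, and the gene body alone gave 1 SMC-only region, 3 non-SMC-only regions and 12 of all 4 lines. A reciprocal overlap of 50% gave 8 regions of all 4 lines. Leaving out 1 library gave differences from -9.00 to 11, 3 to 59 SMC-only and 14 to 49 non-SMC-only regions (the high values, 44 and 59 or 49 and 49, with 1 line of that type left), 18 to 22 regions of all 4 lines, 58 to 63 promoters of the other genes, 12 to 19 peaks in *Rb1* (12 without non-SMC line 1) and 4 to 6 in *Trp53* (4 without SMC line 2). SMC-only regions rose from 3 to 6 without non-SMC line 1. Equal list lengths moved none of the 9 results. No paired analysis was possible because no result comes from a fitted test to which a block could be added, and the differences by line number are given above as values only. The depth of SMC line 1 limits which weak peaks can be shared, and 2 lines per type limit every comparison.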
